A study of Mus musculus with 9 samples.

Results

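Bone marrow (BM) macrophages given RANKL for 48 hours were compared with control macrophages that had no RANKL, across all genes of a bulk RNA-Seq table. The comparison used 6 of the 9 libraries in the series, 3 per group, and 12932 of the 13526 genes in the table, those that reached log2(10) in no fewer than 3 of the 9 libraries. All macrophages came from BM of C57BL/6 mice aged 8 weeks by the sample labels, and were grown for 3 days in α-MEM with serum (FBS at 10%) and M-CSF, the growth and survival factor of macrophages, at 10 ng/ml. The other 3 libraries, from cells given RANKL plus rmCst6 (recombinant mouse cystatin 6) for 48 hours, entered the filter and the estimate of spread. The RANKL group received RANKL for 48 hours, with M-CSF also named for that step in the supplemental methods. For the control group, the sources used here say neither how long the cells were cultured after the first 3 days nor whether M-CSF was present, so RANKL and any difference in culture time cannot be told apart. A RANKL dose is given in the supplemental methods for osteoclast formation assays of mouse marrow cells and not for the RNA-Seq cultures. The origin of the 3 replicates (separate mice, cultures or RNA of the same culture) was also not stated, so the p-values reflect how far these particular samples differ, and that spread may be technical.

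Osteoclasts are multinucleated cells of the monocyte-macrophage lineage that resorb bone. RANKL binds its receptor RANK on the precursor and acts through TRAF adaptors, NF-κB, AP-1 and calcium signals on the transcription factor NFATc1, after which the cells fuse, attach by an actin ring (the sealing zone), and secrete acid and proteases onto bone. The same precursors can otherwise mature as macrophages, which take up debris and sense microbes, and several factors that maintain that state (Irf8, Bcl6, Id proteins) restrain osteoclast formation.

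The labels were checked first against markers of both cell types, which were chosen with earlier results of these data known. That makes the check a weak one. The 12 osteoclast markers took 2.02% to 2.58% of the summed normalized values of a RANKL library, against 0.0863% to 0.0894% in control libraries, and all 12 were called higher with RANKL. The 12 macrophage markers took 1.73% to 1.92% in RANKL libraries, against 3.95% to 4.47% in control libraries. Of these 11 were called lower and Cd68 higher, and the lowest, Cx3cr1, kept a mean log2 value of 8.55 with RANKL. RANKL libraries therefore held both sets of RNA. In bulk RNA, fewer cells of a type and less RNA per cell cannot be told apart. Within a group, libraries correlated at 0.990 to 0.991 across genes, and RANKL libraries correlated with control libraries at 0.888 to 0.898. Whether the libraries of a group are independent replicates was not stated. RANKL library 1 had the highest value of the 3 RANKL libraries for all 12 osteoclast markers and for 29 of the 34 switched on genes described further on.

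Values are log2 of the deposited normalized value plus 1, and a difference is RANKL minus control on that scale, where 1 is a doubling. A gene was called when its adjusted p from limma was under 0.05. By that rule 72.5% of genes were called, 36.6% higher (4729 genes) and 35.9% lower (4644 genes), and 3559 were not called. The groups did not overlap for 75.4% of genes. Most called genes changed little, since 5970 differed by less than 2-fold. The larger changes were mostly rises: 694 genes (5.37%) were called and at least 4-fold higher, against 413 (3.19%) at least 4-fold lower, and 238 were at least 16-fold higher, against 21 at least 16-fold lower. Counting calls of any size, genes at lower levels were more often called lower. By the mean of the higher group, 171 of 1271 genes under 5 were called higher and 339 lower, and 733 of 2493 genes from 5 to 8 were called higher and 889 lower. Of 5651 genes from 8 to 11 there were 2329 higher and 1914 lower, and of 3517 at 11 or more 1496 higher and 1502 lower. At 4-fold or more the genes under 5 were nearly even, with 90 higher and 85 lower. The median difference of all genes was -0.01, and centring each library on its median moved it to -0.12.

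**Figure D1:**
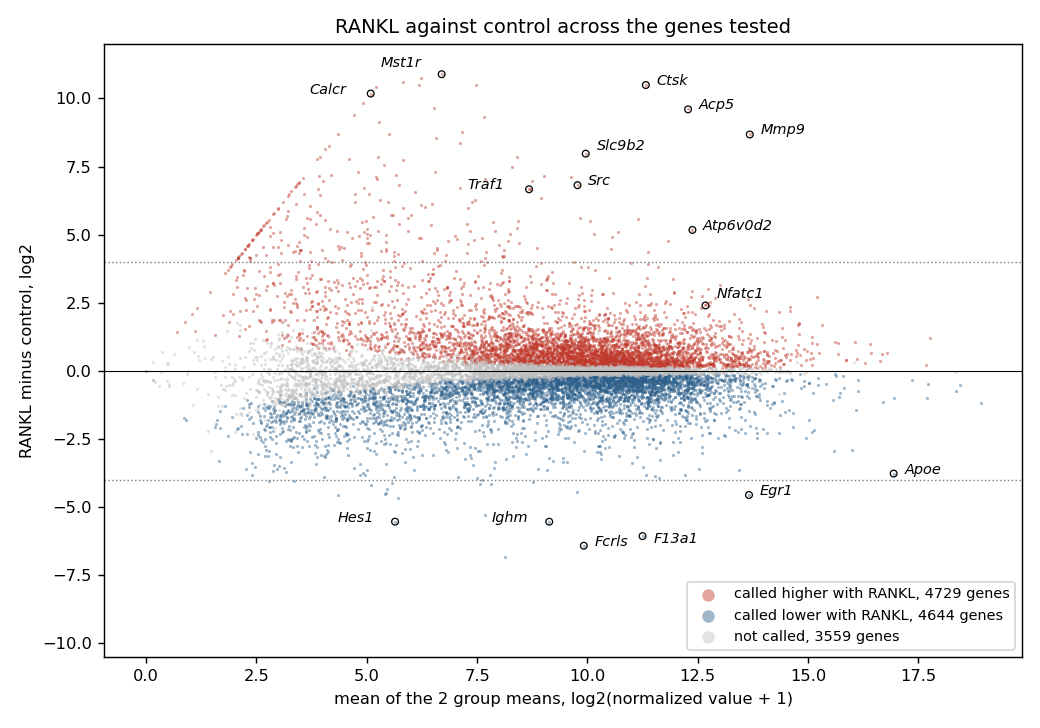
Each point is 1 of 12932 genes, with the mean of the RANKL and control group means on the x axis and RANKL minus control on the y axis (both log2), and dotted lines at 16-fold. The 238 genes at least 16-fold higher reach a difference of 10.89 (Mst1r), whereas the 21 at least 16-fold lower end at -6.83 (Slco2b1, a transporter gene), and the straight edge at the upper left holds genes listed at or near 0 in control.

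Genes switched on with RANKL were taken as those under a normalized value of 10 in every control library and at a log2 value of at least 8 in every RANKL library. There were 34, of which 6 (Nyap2, Calcr, Mt3, Msln, Siglec15 and Serpind1) were listed at 0 in all 3 control libraries. By their level with RANKL the first was Akap6, a scaffold protein for protein kinase A, with 12.79, 12.62 and 12.78 in RANKL libraries and 1.63, 2.47 and 2.58 in control libraries. Car2, carbonic anhydrase II, which makes the protons that the osteoclast secretes, had 12.44, 12.23 and 12.27 with RANKL and 2.48, 3.17 and 3.30 in control. Mst1r, the receptor of macrophage-stimulating protein, had 12.36, 12.004 and 12.06 with RANKL and 2.16, 1.59 and 0 in control. In all 3 genes the lowest RANKL library stood over 8 log2 units above the highest control library. Oscar, an osteoclast receptor that signals through the Fc receptor gamma chain, had 11.35, 10.99 and 11.03 with RANKL, and was listed at 0 in 2 control libraries and at 1.60 in the other. Nyap2, an adaptor of PI3K signaling, had 10.52, 10.25 and 10.48 with RANKL and was listed at 0 in control. The other 5 of the 10 highest were Rufy4, Scin (an actin-severing protein), Cyp2s1, Itga2 (the collagen-binding integrin α2) and Ablim1, with means of 10.84 (Ablim1) to 11.62 (Rufy4) with RANKL and no control library above 3.15 (Itga2).

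Among the other 24 were genes of cell surface proteins and secreted factors. Siglec15, an immunoglobulin-like lectin of osteoclasts, had 9.09, 8.43 and 8.52 with RANKL, and Calcr, the calcitonin receptor, had 10.39, 10.09 and 10.06. Both were listed at 0 in control. Tnfrsf9, the TNF receptor family member 4-1BB, had a mean of 9.18 ± 0.21 with RANKL and 1.34 ± 0.50 in control (SD, n = 3 each). Mycl, a relative of Myc, had 8.75, 8.84 and 8.80 with RANKL and 3.19, 2.82 and 2.45 in control. Steap4, a metalloreductase that reduces iron and copper, had 10.01, 9.76 and 9.75 with RANKL, and in control it was 2.16 in library 1 and listed at 0 in the others. In the 3 libraries that had rmCst6 beside RANKL, all 34 genes lay below their lowest RANKL library, as did 39.4% of all genes tested, and 13 of the 34 were under a normalized value of 10 in all 3. The 34 were chosen for high values in the same RANKL libraries, so nothing is read from that count.

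The gene class switched off with RANKL, taken with a lower floor (a log2 value of at least 6 in every control library, under a normalized value of 10 in every RANKL library), had 5 members. With the floor of 8 used for the other class only Hes1 was left. Hes1, a repressor induced by Notch, had 3.07, 2.79 and 2.76 with RANKL and 8.46, 8.52 and 8.25 in control. The others were the orphan receptor gene Gpr82, the PI3K inhibitor gene Pik3ip1, the pyruvate dehydrogenase kinase gene Pdk4 and the sphingomyelinase gene Smpd3, with means of 2.06 (Pdk4) to 3.05 (Gpr82) with RANKL and of 6.48 (Smpd3) to 6.79 (Gpr82) in control.

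Genes for breaking down bone matrix had the 3 largest rises among genes with a mean of at least 5 in both groups. Ctsk, cathepsin K, the collagen-cleaving protease of osteoclasts, had 16.74, 16.45 and 16.52 with RANKL and 6.13, 6.01 and 6.09 in control, a difference of 10.49 (SE 0.084, adjusted p = 5.97e-16). Acp5, tartrate-resistant acid phosphatase, the enzyme stained to count osteoclasts, had 17.31, 16.95 and 16.97 with RANKL and 7.71, 7.43 and 7.30 in control, a 776-fold difference. Mmp9, a gelatinase, had 18.26, 17.83 and 17.95 with RANKL and 9.24, 9.37 and 9.41 in control, a 409-fold difference. Mmp14, a membrane-bound collagenase, was 27.5-fold higher (14.21 ± 0.20 with RANKL and 9.43 ± 0.08 in control). The last 2 members of the list moved little. Mmp12 was called higher with a difference of 0.25 and Mmp19 lower with -0.39, and the call of Mmp12 was lost with median centring, without the trend, and without control library 3 or RANKL library 2 or 3.

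Of 15 core osteoclast genes at least 16-fold higher, Ppargc1b was not used in this step. Ctsk, Mmp14, Oscar and Src, the tyrosine kinase gene described further on, are those of the other 14 that have a single start window in the RefSeq promoter table for GRCm38.p6 (250 bases before the start to 50 after it). They are shown to compare genes that rose together. Capitals mark the NFAT core, GGAAA or its complement TTTCC. The letters of AP-1 (TGANTCA), the M-box bound by MITF (TCATGTG) and the PU.1 core (GAGGAAGT) were searched on both strands as well, and were in none of these 4 windows.
Ctsk, chr3:95498960-95499259, plus strand: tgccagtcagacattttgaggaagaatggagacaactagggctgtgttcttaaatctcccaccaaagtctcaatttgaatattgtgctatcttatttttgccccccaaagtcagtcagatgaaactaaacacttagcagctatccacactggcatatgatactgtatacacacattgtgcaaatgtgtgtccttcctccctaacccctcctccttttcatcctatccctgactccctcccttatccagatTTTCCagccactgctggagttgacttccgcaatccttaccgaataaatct
Mmp14, chr14:54431348-54431647, plus strand: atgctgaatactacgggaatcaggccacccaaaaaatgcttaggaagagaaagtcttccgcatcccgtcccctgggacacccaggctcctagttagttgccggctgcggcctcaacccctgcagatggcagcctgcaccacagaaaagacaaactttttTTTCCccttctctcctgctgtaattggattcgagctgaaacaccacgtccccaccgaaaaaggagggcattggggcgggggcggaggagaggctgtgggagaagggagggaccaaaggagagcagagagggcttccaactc
Oscar, chr7:3616108-3616407, minus strand: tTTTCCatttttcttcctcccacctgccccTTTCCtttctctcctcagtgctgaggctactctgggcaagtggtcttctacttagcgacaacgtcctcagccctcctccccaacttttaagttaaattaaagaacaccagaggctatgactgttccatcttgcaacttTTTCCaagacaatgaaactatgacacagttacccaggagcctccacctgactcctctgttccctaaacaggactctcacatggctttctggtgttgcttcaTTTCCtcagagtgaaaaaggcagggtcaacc
Src, chr2:157424043-157424342, plus strand: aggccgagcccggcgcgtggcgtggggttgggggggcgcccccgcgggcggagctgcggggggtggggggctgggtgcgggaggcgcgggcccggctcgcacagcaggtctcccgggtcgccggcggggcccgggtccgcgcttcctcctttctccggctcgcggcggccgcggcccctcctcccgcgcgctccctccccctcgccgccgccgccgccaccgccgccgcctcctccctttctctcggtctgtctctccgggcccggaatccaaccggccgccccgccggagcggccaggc

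The windows of genes that rose together were unlike in composition: 43.7% of bases were G or C for Ctsk, 47.3% for Oscar, 56.0% for Mmp14 and 82.3% for Src, against a median of 60.3% over 8230 genes tested with a single window. Oscar had 4 matches to the NFAT core, Ctsk and Mmp14 had 1 each, and Src had 0. The Src window lies inside the gene as GENCODE M21 places it (start at 157418444), so its values describe that RefSeq start alone. GGAAA is short, and 59.7% of all windows held it, as did 54.7% of the 395 windows of genes at least 4-fold higher and 64.5% of the 242 of genes at least 4-fold lower. The AP-1 letters were in 8.86% of windows of the higher genes, 6.61% of the lower and 5.22% of all. The M-box was in 3.80% of the higher, 3.72% of the lower and 2.32% of all, and the PU.1 core in 3.80% of the higher, 6.20% of the lower and 3.39% of all. These are matches of letters, with no test and no measurement of binding.

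**Figure D2:**
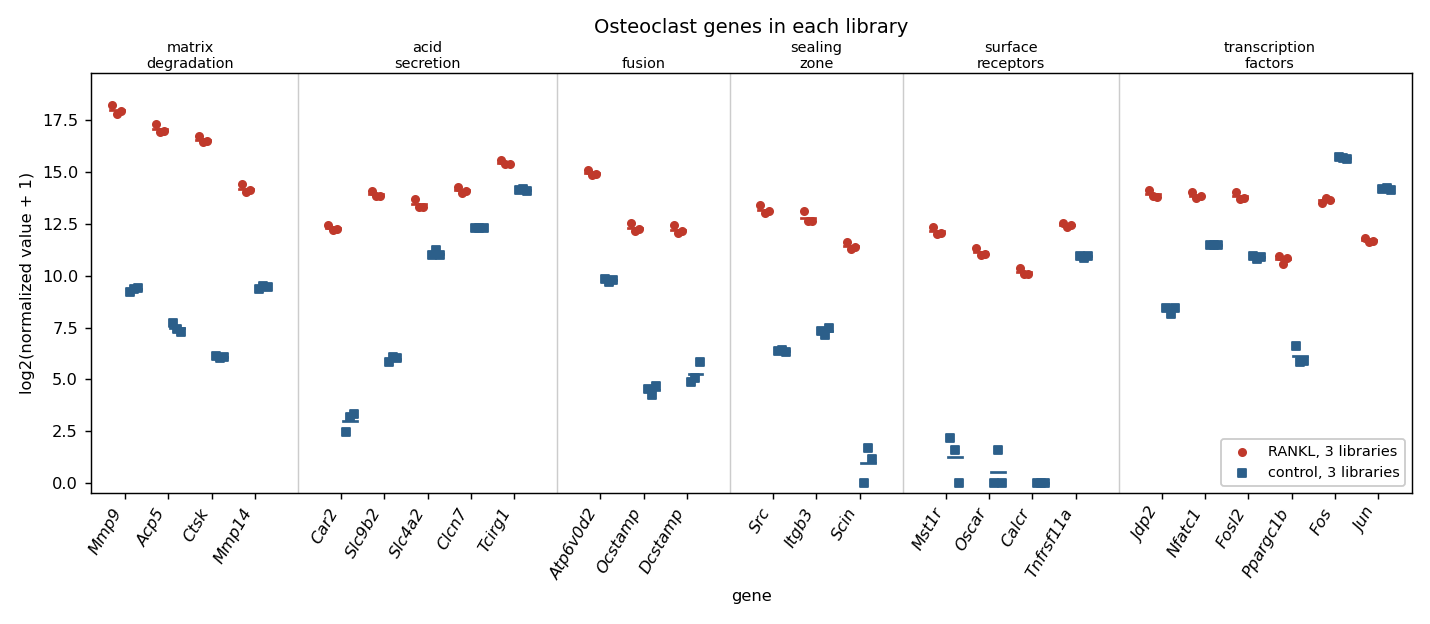
Values of 25 osteoclast genes, log2 of the normalized value plus 1, in each of 3 RANKL libraries (circles, left of each pair) and 3 control libraries (squares), with a line at each group's mean. Ctsk, Acp5 and Mmp9 are over 8 log2 units higher with RANKL, Clcn7 and Tcirg1 under 2, and Fos and Jun are lower with RANKL.

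Acid secretion genes rose in an uneven way. The osteoclast acidifies the space under it with the V-ATPase proton pump, a chloride channel that balances the charge, and bicarbonate exchange on the other side, and defects of several of these genes cause osteopetrosis. Of 9 genes on this list 8 rose and Slc29a3, a nucleoside transporter, fell by 0.28, with a median difference of 1.83. Beside Car2, the sodium-proton exchanger gene Slc9b2 had 14.09, 13.88 and 13.87 with RANKL and 5.82, 6.06 and 6.04 in control, a 251-fold difference. Slc4a2, the chloride-bicarbonate exchanger, rose 5.20-fold, Clcn7, the chloride-proton exchanger, 3.56-fold, Tcirg1, the a3 subunit of the pump, 2.54-fold, and Ostm1, the partner of Clcn7, 1.52-fold. Of 18 V-ATPase subunits and accessory proteins 17 rose, with a median of 1.39. Their summed values took 1.33% to 1.46% of a RANKL library, against 0.444% to 0.452% of a control library. Atp6v0d2, the d2 subunit, also needed for fusion, was 36.1-fold higher, and next was Atp6v1b2 of the catalytic sector at 5.06-fold. The a subunit genes went different ways: Tcirg1 rose, whereas Atp6v0a1 was called lower with 12.04, 12.04 and 12.10 in RANKL libraries and 12.73, 12.73 and 12.66 in control libraries.

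Of 11 fusion genes 8 rose and 3 fell. Ocstamp and Dcstamp, the transmembrane proteins without which precursors stay mononuclear, had means of 12.33 ± 0.20 and 12.22 ± 0.20 with RANKL, and of 4.48 ± 0.21 and 5.26 ± 0.50 in control. The tetraspanins moved apart, with Cd9 higher by 2.16 (13.34, 13.36 and 13.36 with RANKL, 11.15, 11.22 and 11.20 in control) and Cd81 lower by 2.69 (10.00, 10.04 and 10.12 with RANKL, 12.82, 12.71 and 12.69 in control). P2rx7, an ATP-gated channel, fell by 1.45, and Cd47 by 0.19.

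Adhesion and actin genes went both ways. Of 27 genes of the podosome and sealing zone 17 rose and 8 fell, with a median of 0.48. Src, the kinase needed for the ruffled border, had 13.41, 13.03 and 13.11 with RANKL and 6.38, 6.42 and 6.31 in control, a 113-fold difference, and the groups were far apart. Itgb3, the β3 chain of the vitronectin receptor, was 44.8-fold higher, its partner Itgav 6.30-fold, the unconventional myosin Myo10 15.4-fold, and the exchange factor Dock5 7.35-fold. Myo1d, a class I myosin that links membranes to actin, was among the 15 largest rises of genes with a mean of at least 5 in both groups, with a difference of 7.12. The 8 that fell did so by less, the most in Cbl (-1.06), an adaptor of Src, and Vav3 (-0.84), an exchange factor for small GTPases. Among 19 integrin subunits 8 rose and 9 fell (42.1% and 47.4%, against 36.6% and 35.9% over all genes). The risers included Itga2, Itgb3, Itgav and Itgax, and the 4 largest falls were Itga8 (-1.97), Itga9 (-1.66), Itga6 (-1.53) and Itgb5 (-1.31). Itgb5 and Itgb3 both pair with Itgav, and they moved in opposite directions.

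Upstream of these genes, components of RANK signaling went both ways. Of 24 genes of RANK and NF-κB signaling 10 rose and 9 fell, with a median of 0.03, shares close to the 36.6% and 35.9% of all genes. Traf1, an adaptor induced by NF-κB, stood apart with 12.10, 12.07 and 11.86 with RANKL and 5.47, 5.18 and 5.38 in control, a 102-fold difference. Tnfrsf11a, which encodes RANK, had 12.54, 12.37 and 12.44 with RANKL and 10.96, 10.87 and 10.97 in control, a 2.86-fold difference. Traf6, the adaptor on which RANK depends, rose 1.46-fold. In the noncanonical arm, Nfkb2 (p100) rose 2.05-fold, Relb 1.53-fold and the inhibitor Traf3 2.25-fold, while Map3k14, the kinase NIK that TRAF3 holds in check, was lower by 1.73, with 9.38 ± 0.11 with RANKL and 11.10 ± 0.06 in control. Nfkb1 and Rela of the canonical arm fell by 0.23 and 0.43, and their inhibitor Nfkbia by 0.67. RNA levels do not show the processing of p100 or the amount of TRAF3 protein.

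Most genes of the costimulatory arm were lower. Of 18 ITAM receptors, adaptors and kinases 5 rose and 11 fell, with a median of -0.40. Oscar and the paired receptor Pira2 (5.42-fold) were the only members at least 2-fold higher. Tyrobp (DAP12) fell by 0.33, Fcer1g (the Fc receptor gamma chain) by 1.12 and Trem2 by 1.43, and Syk, the kinase they share, had 14.12, 14.06 and 14.09 with RANKL and 14.09, 14.05 and 14.05 in control and was not called. Downstream, 7 of 19 calcium and calcineurin genes rose and 6 fell, again close to the shares over all genes. After Calcr the largest rises were Atp2b4, a calcium pump of the plasma membrane (22.8-fold), and Rcan1, a calcineurin regulator that NFAT induces (4.67-fold). Itpr1, an IP3 receptor, and the channel Trpv4 fell by 1.16 and 1.64.

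Transcription factors of osteoclast formation went both ways, with AP-1 genes on both sides. Of 17 genes 9 rose and 6 fell, and with median centring 9 rose and 8 fell. Without that centring, the share that rose was above the share over all genes, and the share that fell was close to it. Nfatc1 had 14.04, 13.74 and 13.85 with RANKL and 11.48, 11.47 and 11.47 in control, a 5.28-fold difference. Jdp2, an AP-1 family member needed for osteoclast formation, was 48.1-fold higher, Ppargc1b, a coactivator of mitochondrial genes, 25.9-fold, and Fosl2 7.60-fold. Prdm1 (Blimp1, a repressor of macrophage genes), Spi1 (PU.1) and Mitf rose by less, 1.84-fold, 1.41-fold and 1.27-fold. In contrast Fos, without which osteoclasts do not form, had 13.51, 13.75 and 13.68 with RANKL and 15.74, 15.69 and 15.64 in control, a 4.13-fold fall. Jun was 5.58-fold lower, and Junb, Jund and Fosl1 fell by 1.58, 1.23 and 1.66. The lysosomal regulator gene Tfe3 fell by 0.82.

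Of 11 genes listed as repressors of osteoclast formation 10 fell, with a median of -1.40. Irf8 had 11.43, 11.35 and 11.48 with RANKL and 13.13, 13.12 and 13.03 in control. Maf fell by 2.17, Bcl6 by 1.06 and Id1 by 2.32. Sbno2, which is known to promote fusion of precursors, stood on this list too and was called higher by 1.70-fold. Of 11 Notch pathway genes 3 rose and 6 fell, with a median of -0.14. Notch1 had 10.31, 10.36 and 10.53 with RANKL and 13.51, 13.43 and 13.49 in control, while Notch2 fell by 1.13 and the ligand gene Jag1 rose 2.60-fold.

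Immediate early and MAPK feedback genes were mostly lower: of 25 genes 19 fell and 6 rose, with a median of -1.87. Egr1 had 11.23, 11.38 and 11.54 with RANKL and 16.05, 15.95 and 15.83 in control, a 23.6-fold fall. Fosb, Nr4a1 and Ier3 fell by 3.81, 3.36 and 3.83. The feedback inhibitors split, as Dusp6 and Dusp1 fell by 2.83 and 2.10 while Spry1, Dusp4 and Spred1 rose by 3.05, 2.31 and 2.17.

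**Figure D3:**
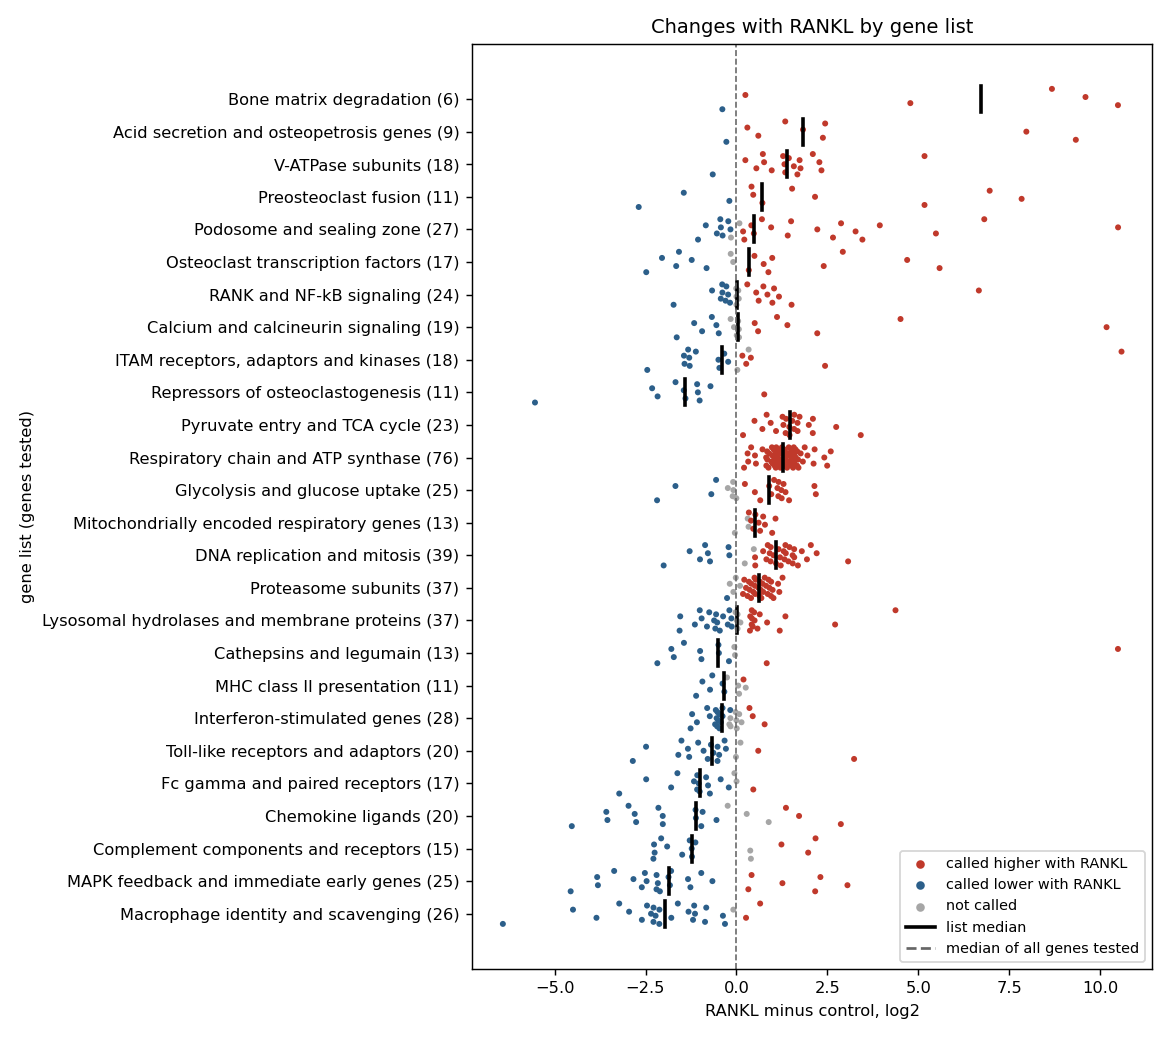
Differences (RANKL minus control, log2) of the genes of 26 lists, 1 point a gene, colored by call, with the list median as a black bar and the median of all genes as a dashed line. The medians of the bone matrix, acid secretion, V-ATPase, TCA cycle and respiratory chain lists lie right of the line. Those of the macrophage, immediate early, complement and chemokine lists lie left of it, and single genes of several lists lie on the other side.

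Receptors by which macrophages take up and sense fell broadly. Of 26 genes of macrophage identity and scavenging 23 fell, 2 rose and 1 was not called, with a median of -1.95. Fcrls, an Fc receptor-like scavenger gene, had 6.52, 7.08 and 6.52 with RANKL and 13.22, 13.12 and 13.05 in control, an 85.8-fold fall. F13a1, factor XIII subunit A, had 8.17, 8.32 and 8.16 with RANKL and 14.42, 14.17 and 14.25 in control, a 67.1-fold fall. Both were still detected in every RANKL library. The M-CSF receptor gene Csf1r fell 2.24-fold, and Adgre1 (F4/80) had 13.93, 14.29 and 14.13 with RANKL and 15.91, 15.92 and 15.89 in control. The mannose receptor Mrc1, the LPS coreceptor Cd14, the scavenger receptor Stab1 and the high-affinity IgG receptor Fcgr1 fell by 2.28, 2.35, 2.95 and 3.22. Cd68, a lysosomal glycoprotein that osteoclasts also carry, and Msr1 rose, by 0.65 and 0.26.

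Lipid handling and complement went the same way. Apoe, apolipoprotein E, had 15.11, 15.06 and 14.99 with RANKL and 18.95, 18.92 and 18.60 in control, a 13.7-fold fall, and 11 of 14 efferocytosis and lipid efflux genes fell with it. That list's summed values took 0.641% to 0.657% of a RANKL library, against 2.52% to 2.87% of a control library. Its 3 exceptions were Nr1h3 (LXRα), higher by 3.17, Lpl (0.96) and Abcg1 (0.76). All 3 C1q chains fell, C1qa by 2.27, C1qb by 2.25 and C1qc by 2.28, whereas C3, Cfb and the inhibitor gene Serping1 rose by 1.97, 2.18 and 1.24, so that 10 of 15 complement genes fell and 3 rose. The call of Serping1 was lost without control library 1 or 3 or RANKL library 2. Of 17 Fc gamma and paired receptors 14 fell and 1 rose, with a median of -1.01.

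Of 20 Toll-like receptor genes and adaptors 16 fell, with Ly86 and Tlr9 at -2.85 and -2.49. Cd180, the receptor that binds the Ly86 product, was higher by 0.60. Tlr5 was also called higher, but at a low level, with 3.51, 4.41 and 5.53 in RANKL libraries and 0, 1.82 and 1.92 in control libraries. Of 28 interferon-stimulated genes 17 fell and 3 rose, by small amounts (median -0.41), from Mx1 at -1.26 to Oasl1 at 0.78. MHC class II presentation genes changed little, with 6 of 11 lower, 1 higher and a median of -0.33. That 1 was Cd74, whose groups overlapped and whose call was lost with median centring, with quantile normalization, without the trend, or without any 1 library other than control library 2.

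Most chemokine ligands and receptors were lower. Of 20 ligands 14 fell and 3 rose, and of 10 receptors 7 fell and 3 rose. The falls of ligands were led by Ccl24 (-4.53) and included Ccl2, Ccl3, Ccl4 and Ccl7 (-2.97, -2.80, -2.76 and -3.58). Ccl9, which osteoclasts make, was 3.30-fold higher with 15.68, 15.66 and 15.64 in RANKL libraries and 13.99, 13.97 and 13.86 in control libraries. The receptor of Ccl9, Ccr1, had 13.13, 12.97 and 13.03 with RANKL and 9.45, 9.78 and 9.68 in control, a 10.6-fold rise, and Ccr3 rose by 3.00. The monocyte receptor Ccr2 was 14.4-fold lower, and Cx3cr1 fell by 2.12. The cytokine gene Il1b fell 17.8-fold, and had 5.05, 5.56 and 5.85 with RANKL and 9.85, 9.39 and 9.67 in control.

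**Figure D4:**
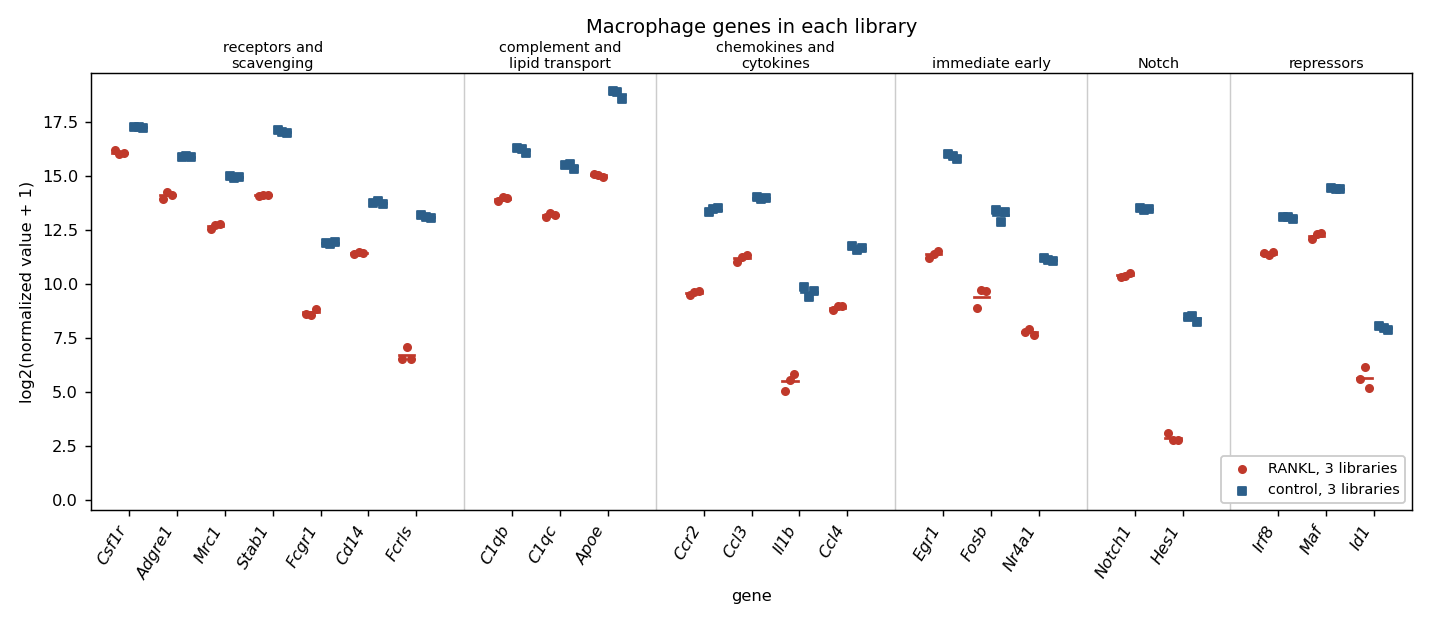
Values of 22 macrophage and early response genes, log2 of the normalized value plus 1, in each of 3 RANKL libraries (circles, left of each pair) and 3 control libraries (squares), with a line at each group's mean. All 22 lie lower in every RANKL library than in any control library, from Csf1r (a difference of -1.16) to Fcrls (-6.42).

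Receptors for growth factors and factors that act on other bone cells changed in both directions. Beside Mst1r and Tnfrsf9, Met, the hepatocyte growth factor receptor and the nearest relative of Mst1r, had 11.29, 11.09 and 11.18 with RANKL and 6.28, 5.40 and 5.34 in control, a 45.6-fold difference. Il1rn, the interleukin 1 receptor antagonist, rose by 3.83, while the receptor genes Il10ra and Csf3r fell by 2.45 and 2.55. Of 28 such genes 7 rose and 15 fell (25% and 53.6%, against 36.6% and 35.9% over all genes). Among 15 secreted or membrane factors by which osteoclasts act on osteoblasts and vessels, 7 rose and 7 fell. That was 46.7% each way, a near even split like the 36.6% higher and 35.9% lower over all genes. Sphk1, which makes sphingosine 1-phosphate, had 8.16, 7.54 and 7.48 with RANKL and 3.04, 2.97 and 4.51 in control. Lif, Efnb2, Pdgfb and Sema4d rose by 3.12, 3.00, 1.57 and 1.22, and Igf1 and Vegfa fell by 2.13 and 1.32.

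Genes of mitochondrial energy production rose as a group. All 76 nuclear genes of the respiratory chain and ATP synthase were called higher, with a median of 1.29, and 75 were with median centring, with quantile normalization, or without RANKL library 1 or control library 3. By complex the medians were 1.12 over 37 genes of complex I, 1.42 over 4 of complex II, 1.59 over 9 of complex III, 1.34 over 10 of complex IV and 1.39 over 15 of complex V. Cycs, cytochrome c, which carries electrons between complexes III and IV, had 11.26, 11.25 and 11.18 with RANKL and 8.58, 8.64 and 8.68 in control, a 6.04-fold rise. Atp5b, the catalytic β subunit of ATP synthase, rose 4.44-fold. The smallest rises were in complex I, where Ndufs8, Ndufa6 and Ndufa7 rose by 0.21, 0.31 and 0.32. The summed values of the 76 genes took 1.25% to 1.39% of a RANKL library, against 0.469% to 0.496% of a control library.

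Of the 13 genes that mitochondria encode themselves 10 were called higher, with a median of 0.52. mt-Nd1 of complex I had 15.77, 16.36 and 16.28 with RANKL and 15.07, 15.04 and 15.07 in control, while mt-Co1 of complex IV had 18.11, 18.41 and 18.38 with RANKL and 18.34, 18.31 and 18.38 in control and was not called. RANKL library 1 was the lowest RANKL library for all 13, although it was the highest for 65 of the 76 nuclear genes. The count called was 12 without RANKL library 1, and 6 without RANKL library 2 or 3 or without control library 2, with median centring or without the trend. What sets library 1 apart was not tested.

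All 23 genes of pyruvate entry and the TCA cycle were called higher, with a median of 1.46 (22 with median centring). Idh3a, the catalytic subunit of the NAD-dependent isocitrate dehydrogenase, rose 10.7-fold, with 12.26, 12.17 and 12.14 in RANKL libraries and 8.70, 8.88 and 8.73 in control libraries. Its partner subunits Idh3b and Idh3g rose by 1.27 and 0.83. Mdh2, the last enzyme of the cycle, rose 6.70-fold. Pdk4, the kinase that shuts off pyruvate dehydrogenase, was in the switched off class. Of 16 fatty acid oxidation genes 14 rose, by a median of 0.65, while Cpt1a, the rate-limiting step for entry of fatty acids into mitochondria, fell 1.87-fold (12.04, 12.04 and 12.03 with RANKL, 13.02, 12.87 and 12.92 in control).

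Glycolysis was divided. Of 25 genes 16 rose and 4 fell, with a median of 0.90. With median centring 8 fell. The enzymes after the splitting of fructose bisphosphate rose by 0.65 (Pkm) to 1.30 (Pgam1), and Gapdh, often used as a reference gene, by 1.24. Lactate dehydrogenase genes rose as well, Ldhb 4.54-fold and Ldha 2.73-fold. The genes that fell were the glucose transporter gene Slc2a3 (4.54-fold), the regulatory kinases Pfkfb4 (3.20-fold) and Pfkfb3 (by 0.56), and the first enzyme Hk2 (1.61-fold), whose relative Hk1 rose by 0.90. Among genes of phosphate energy transfer, Ckb, brain creatine kinase, rose 4.91-fold and the creatine transporter gene Slc6a8 by 2.57, Ckmt1, the mitochondrial creatine kinase, was listed at 0 in all control libraries and had a mean of 7.76 with RANKL, and Gatm, the first enzyme of creatine synthesis, fell 5.65-fold.

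**Figure D5:**
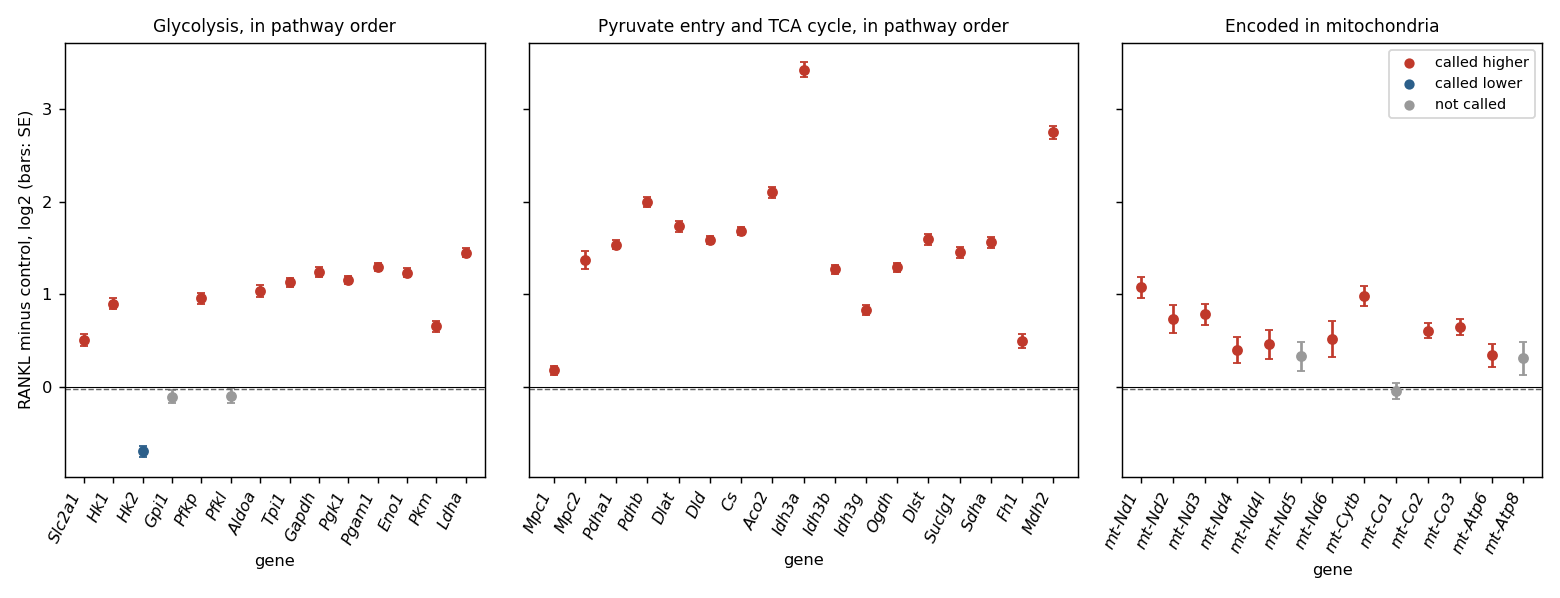
Difference (RANKL minus control, log2) with its SE for 14 glycolysis genes and 17 genes of pyruvate entry and the TCA cycle in pathway order, and for 13 mitochondrially encoded genes. Idh3a (3.42) and Mdh2 (2.74) are the highest, Hk2 (-0.69) is lower with RANKL, and mt-Co1 lies at -0.04.

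Lysosomal genes did not move together. Of 37 hydrolases and membrane proteins 15 rose and 17 fell, with a median of 0.01, against 36.6% higher and 35.9% lower over all genes, so the list as a whole was not far from the background. Arsb, which removes sulfate from matrix glycosaminoglycans, was 20.7-fold higher (13.74, 13.41 and 13.50 with RANKL, 9.06, 9.20 and 9.27 in control), and Gnptab, which adds the mannose 6-phosphate tag of lysosomal enzymes, 6.56-fold. Lamp1, Lamp2 and Scarb2 of the lysosomal membrane fell by 0.81, 0.96 and 1.56. Apart from Ctsk, Ctsz was the only cathepsin called higher (0.83), and 9 of 13 genes fell, among them Ctse (-2.17), Ctsc (-1.79), Ctsh (-1.72), the legumain gene Lgmn (-1.44) and Ctsb, with 17.14, 17.21 and 17.21 in RANKL libraries and 18.23, 18.20 and 18.12 in control libraries. All cathepsins and legumain together took 2.10% to 2.12% of a RANKL library, against 2.64% to 2.71% of a control library.

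Among iron genes, several for import rose and the exporter gene fell. Tfrc, the transferrin receptor, rose 2.43-fold, the endosomal reductase gene Steap3 by 1.74 and the importer gene Slc11a2 by 0.74, while the exporter ferroportin, Slc40a1, fell 4.88-fold with 12.82, 12.94 and 12.99 in RANKL libraries and 15.22, 15.16 and 15.23 in control libraries. Slc11a1, the phagosomal transporter, and the hemoglobin scavenger receptor Cd163 fell by 1.48 and 4.49. Of 18 genes 9 rose and 6 fell (50% and 33.3%, against 36.6% and 35.9% over all genes), so the share that fell was close to the background. Cholesterol synthesis genes were mixed, with 10 of 26 higher, 7 lower and a median of 0.09, near the shares over all genes.

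Genes for making and turning over protein rose by modest amounts. Of 20 cytosolic aminoacyl-tRNA synthetases 19 rose, with a median of 0.84, and Nars was not called. Of 37 proteasome subunits 32 rose, with a median of 0.61. The 3 catalytic subunits of the standard proteasome, Psmb5, Psmb6 and Psmb7, rose by 1.27, 1.15 and 1.18, while the 3 that replace them in the immunoproteasome, Psmb8, Psmb9 and Psmb10, were not called, though all 3 were called lower with median centring (-0.12, -0.29 and -0.19). Of 78 mitochondrial ribosomal protein genes 74 rose (median 0.83), and of 82 cytosolic ones 56 rose and 2 fell (median 0.24), which became 44 and 7 with median centring. The integrated stress response list was divided. Of its 23 genes 13 rose and 6 fell, which became 11 and 7 with median centring. At 2-fold or more, 7 were higher and 5 lower. The differences ran from -1.35 to 2.49, the highest being that of the cystine transporter Slc7a11. The asparagine synthetase gene Asns was 4.01-fold higher.

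Most genes of cell division were higher with RANKL. Of 39 genes of DNA replication and mitosis 29 rose and 8 fell, with a median of 1.09. Ccne2, cyclin E2, had 8.21, 8.59 and 8.28 with RANKL and 4.92, 5.61 and 5.33 in control, an 8.41-fold rise, and the helicase subunit Mcm5 and the topoisomerase Top2a rose 3.84-fold and 3.01-fold. The cyclin D genes went down instead: Ccnd2 fell, with 5.44, 5.02 and 5.27 in RANKL libraries and 7.09, 7.27 and 7.38 in control libraries, and Ccnd1 and Ccnd3 fell by 0.78 and 0.86. The inhibitors Cdkn1a (p21) and Cdkn1b (p27) fell by 1.29 and 0.73.

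Markers of other BM cells took small shares of a library and were mostly lower with RANKL. Of 13 neutrophil genes 12 fell, with a median of -1.45 and summed shares of 0.0224% to 0.0378% in RANKL libraries and 0.0639% to 0.09% in control libraries. S100a9 had 10.40, 11.28 and 10.80 with RANKL and 11.91, 12.40 and 12.48 in control. All 3 B cell genes tested fell, led by Ighm, the IgM heavy chain (6.36 ± 0.03 with RANKL and 11.90 ± 0.11 in control), as did all 5 megakaryocyte genes, led by Pf4 (-3.55). Of 10 stromal and osteoblast genes 8 fell. Col1a1 had 10.54, 10.06 and 10.18 with RANKL and 10.95, 11.83 and 11.35 in control. The part of these cells in the falls of the other lists was not tested. Of 7 dendritic cell genes 3 rose and 2 fell, with differences from -3.42 to 2.44. Zbtb46 and Itgax were among the risers (by 2.44 and 1.55). Of 3 endothelial genes Kdr rose 8.36-fold and Pecam1 fell by 2.51.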

How the data were processed

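Bulk RNA-Seq of 9 libraries was used, 3 each of RANKL, RANKL plus rmCst6 and control macrophages, with groups taken from the sample labels. The authors deposited 1 table of log2 normalized values per gene, whose lowest value is exactly 0, as log2 of a value plus 1 would give. The submitters' processing notes name Salmon 1.2.1, DESeq2 and GRCm38.p6, without their order or settings. Linear values summed to 27660000 to 28020000 in RANKL libraries and 27730000 to 28810000 in control libraries, genes listed at 0 numbered 94 to 129 in RANKL libraries and 180 to 206 in control libraries, and whole reads could not be recovered, so sequencing depth is unknown. No pseudocount was added. Genes that reached log2(10) in no fewer than 3 libraries were fitted with limma 3.58.1 in R 4.3.3 (3 group means over 9 libraries, trend on, robust off), and 594 genes were left out. P-values were two-sided and adjusted by Benjamini-Hochberg over 12932 genes. The fit was tested on simulated data. Of the table's gene IDs 13516 were found in GENCODE M21. Promoter windows came from RefSeq for GRCm38.p6.

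The gene lists and the rules for naming genes were chosen with earlier results of these data known, and the list of mitochondrially encoded genes after its values were seen. Named were the 10 highest switched on and switched off genes, the 15 largest rises and falls with groups that did not overlap and means of at least 5, core genes of the lists, and of each list its largest changes and its exceptions. Other genes named are list or class members chosen after their values were seen. A gene can stand in several lists, and some genes within these rules are not reported here. Alternatives were other filters, an added constant of 8, median centring, quantile normalization, limma with no trend, in robust mode or on 6 libraries, a replicate block, stricter calls, and leaving out each RANKL and control library.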

Additional observations from a re-analysis of the deposited data

How the results depend on the processing

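The count of genes called was 9373. Requiring a 2-fold change left 3403 (1737 higher, 1666 lower) and a 4-fold change 1107 (694 higher, 413 lower). Leaving out 1 RANKL or control library gave 8909 to 9017 called, 4533 to 4615 higher and 4353 to 4449 lower. Median centring gave 4125 higher and 5433 lower, and 8769 genes kept their call and direction. The other filters, constant, scaling and limma settings gave 8228 to 9558 called. With the replicate number as a block, 9354 genes were called, and 9249 kept their call and direction. The deviations of same-numbered RANKL and control libraries correlated at 0.0439, 0.0153 and 0.0623, beside -0.082 to 0.0338 for differently numbered ones. All are near 0, and the numbers were not taken to pair the libraries. Of 218 called genes named here, 214 kept direction and call in every one of the 15 settings that tested them (9 of the named genes were not tested with the filter at 100), the exceptions being Cd74, Mmp12, Ndufs8 and Serping1. Reversals were seen in genes near 0: Syk at -0.081 with median centring and -0.012 with quantile normalization, mt-Co1 at 0.30 with quantile normalization (adjusted p = 0.0248, limma) and, leaving out 1 library, from -0.097 to 0.050 (above 0 without RANKL library 1), Nars from -0.089 to 0.029 (above 0 without RANKL library 2 or 3), and Psmb8 from -0.044 to 0.014 (above 0 without control library 1 or RANKL library 3). The cause was not tested. Unknown depth limits what can be said of genes listed at 0, and 3 libraries a group limit small differences: 285 genes that were not called had an unadjusted p under 0.05.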
